A study of Mus musculus with 9 samples.

Results

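Messenger RNA was measured for 9 genes that start, restrain or undo blood clotting in macrophages treated with photobiomodulation (PBM). These were F3, F7, F10, Thbd, Thbs1, Plau, Plaur, Plat and Serpinb2, 9 of the 55655 rows of the deposited expression tables, each found by its Ensembl identifier. The genes were chosen by function and also by measured values, since the FPKM of all 9 libraries, M1 + PBM against M1 included, was known when they were listed. Their levels and differences are therefore given as a description with no test. The cells were bone marrow-derived macrophages of wild type C57BL/6 mice aged 6 to 8 weeks, from femur and tibia, kept for 7 days with 10 ng/mL of the growth factor M-CSF. Cells left in this resting state are called M0. The title, source and cell type labels of those samples say M0, while their treatment text is the one given for M1 polarization, so the M0 group rests on the former. M1 macrophages, the inflammatory state, also received lipopolysaccharide (LPS, 100 ng/mL), a bacterial cell wall component, and the cytokine interferon-γ (IFN-γ, 20 ng/mL) and were not irradiated. The M1 + PBM macrophages were given both agents and were irradiated in a dark box with an 808-nm laser at 6 mW/cm2 for 7 minutes as the agents were added, while the M1 cells stood in the dark box without light. RNA was taken 12 hours after PBM. Each of the 3 groups has 3 libraries, and the labels do not say whether these came from separate mice, so the spread between them may be partly technical. How long the M0 cultures were held after maturation is not given in the sources used here.

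The extrinsic pathway of clotting begins with tissue factor, the membrane protein encoded by F3, which binds coagulation factor VII (F7) and with it activates factor X (F10). Thrombin formed downstream is captured by thrombomodulin (Thbd), which turns it towards the anticoagulant protein C pathway. The plasminogen system dissolves fibrin and other matrix, and it depends on the activators urokinase (Plau) and tissue plasminogen activator (Plat), the urokinase receptor (Plaur) and activator inhibitors such as PAI-2 (Serpinb2). Thrombospondin-1 (Thbs1) is an adhesive protein of platelets and matrix that inflammatory macrophages also secrete. Monocytes and macrophages are a known source of tissue factor, urokinase and PAI-2 after contact with bacterial products.

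Expression is given as FPKM, which is sequenced fragments scaled by transcript length and by the number of mapped fragments. Steps among the low FPKM values gave an estimated depth of 31050000 to 34930000 fragments in M0, 31700000 to 40120000 in M1 and 34780000 to 42280000 in M1 + PBM. All 7 macrophage markers examined, among them Adgre1, Csf1r and Lyz2, had an FPKM of at least 1 in all 9 libraries. The 4 M1 markers (Nos2, Cd86, Il12b and Il6) summed to 0.766 to 4.23 in M0, 192.7 to 406.2 in M1 and 88.7 to 171.0 in M1 + PBM. Nos2 was the largest part of this sum in every M1 and M1 + PBM library. Nos2, Cd86 and Il6 were lower in all M1 + PBM than in all M1 libraries. Il12b overlapped, at 32.95, 53.33 and 81.36 in M1 replicates 1 to 3 and 33.35, 65.55 and 10.53 in M1 + PBM. Only in replicate 3 was Il12b lower with PBM. M0 replicate 3 stood apart, with a summed FPKM of 191.1 for 7 fibroblast genes, against 6.94 and 5.62 in the other M0 libraries. The sum was 13.1 to 14.8 in M1 and 6.31 to 27.8 in M1 + PBM. Col1a1 (122.8) and Col1a2 (45.93) made up most of the 191.1, and 5 of the 7 genes were at their highest there. Dcn and Lum were not, at 0.497 and 0.0594 against up to 1.625 and 0.0617 in M1. The M1 marker sum of 4.23 was also that of M0 replicate 3, against 0.766 and 0.966 in M0 replicates 1 and 2. Its Nos2 was 1.79, against 0.0147 and 0.0133. Serpinb2 and Thbs1 were likewise highest of M0 in this library, and what lies behind this was not tested. M1 replicate 2 also stood apart, with 8 of 9 hepatocyte markers at their highest, a summed FPKM of 18.8 against at most 3.61 elsewhere. The M0 libraries are in a table of their own, which may have been normalised separately, so M0 was set beside the other groups with no test.

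Between M0 and M1, 6 of the 9 genes did not overlap. Their differences went in both directions, and the ratios of means ran from 1.29 (Plaur) to 52.8 (Serpinb2). F10, Thbs1, Plaur and Serpinb2 were higher in every M1 library than in every M0 library, and Thbd and Plau were lower in every one. Over the 13915 rows that reached an FPKM of 1 in 3 or more of the 9 libraries, 15.6% were higher in M1 without overlap and 50.6% were lower. Together these made 66.3%, near the share among the members. F3 and Plat are not among those rows. F3, F7 and Plat overlapped between M0 and M1. Between M1 and M1 + PBM fewer members were set apart. Plaur and Serpinb2 were lower with PBM in every library, and Thbd was higher in every library. Among the 12238 rows tested in that comparison, 2.52% were lower without overlap and 8.51% were higher, and among the 31779 rows above 0 these shares were 2.67% and 5.66%. The other 6 members overlapped. Against M0, F10 and Serpinb2 were higher with PBM in every library and F3, Thbd, Plau and Plaur were lower, where 15.9% and 46.2% of the 13915 rows were so. In bulk RNA, fewer cells expressing a gene and less RNA per cell cannot be told apart.

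**Figure D1:**
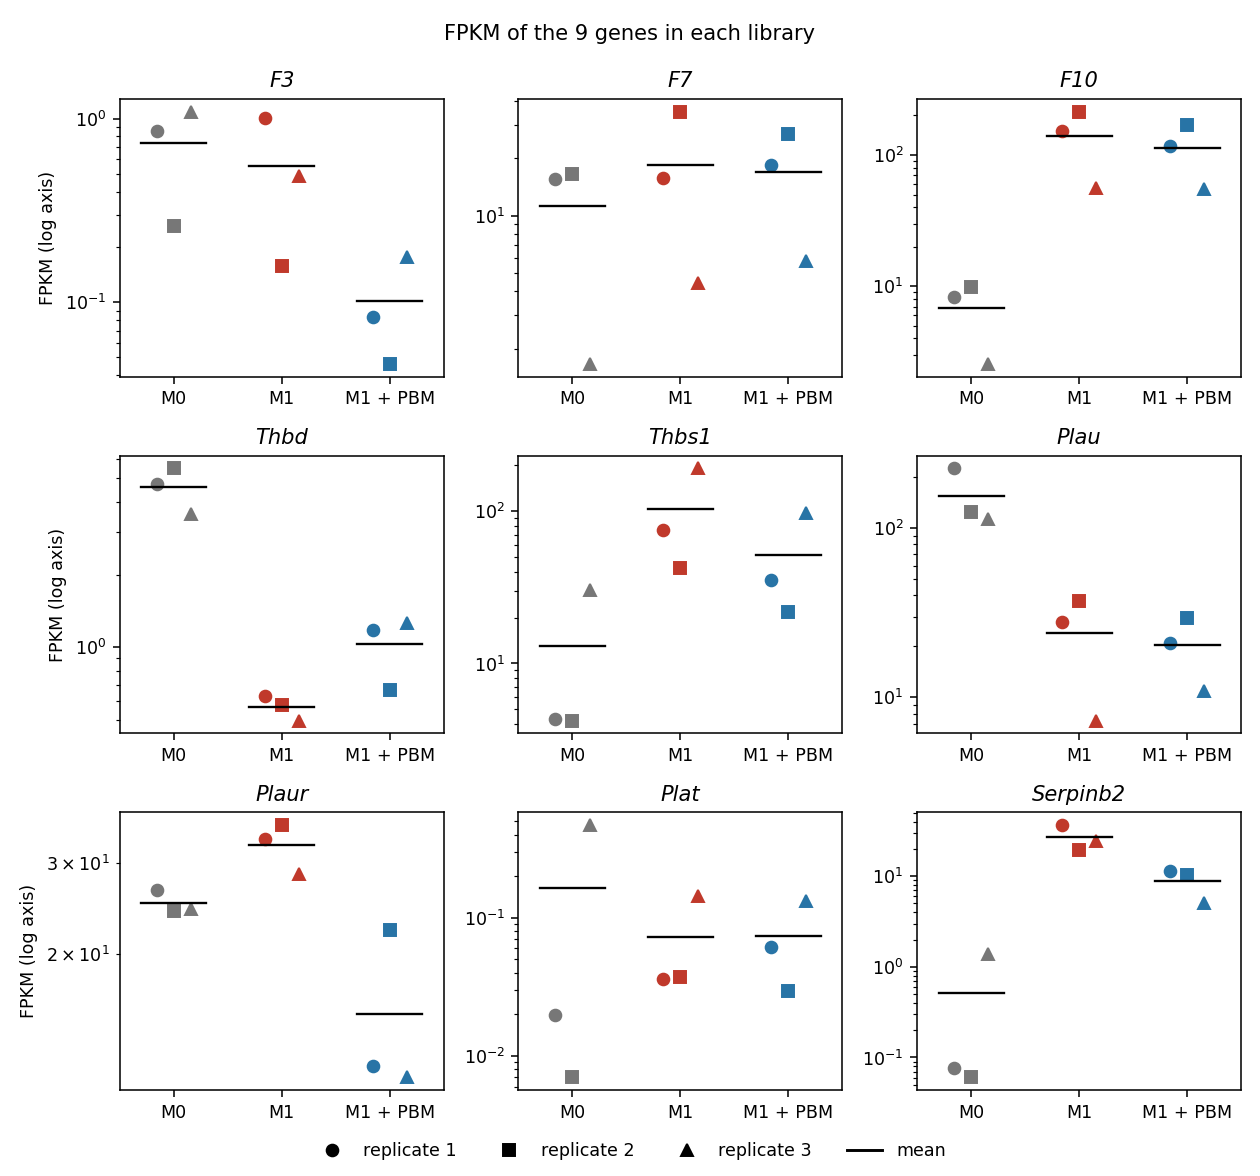
FPKM (log axis, with its own range in each panel) of the 9 genes in the 3 M0 (grey), 3 M1 (red) and 3 M1 + PBM (blue) libraries, with 1 marker shape for each replicate number and a line at the group mean. Plaur and Serpinb2 with PBM lie below all M1 libraries, and F10 and Serpinb2 lie above all M0 libraries in both stimulated groups.

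The sequences just before the transcription start were looked up for all members. RefSeq windows on build GRCm38.p6 matched 5 of the 9 genes by symbol (F3, F7, F10, Plaur and Serpinb2). The 250 bases before the start are shown for F3, Plaur and Serpinb2, because all 3 hold the heptamer TGANTCA, here in capitals. N stands for any base, so this pattern includes the core that AP-1 factors are known to bind but is looser than it.

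F3, chr3:121723287-121723536, + strand: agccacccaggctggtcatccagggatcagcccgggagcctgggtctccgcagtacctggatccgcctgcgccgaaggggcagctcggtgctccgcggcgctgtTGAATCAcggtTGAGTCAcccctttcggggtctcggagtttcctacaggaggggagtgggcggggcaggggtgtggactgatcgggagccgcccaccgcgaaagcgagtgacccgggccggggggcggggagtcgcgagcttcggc
Plaur, chr7:24462233-24462482, + strand: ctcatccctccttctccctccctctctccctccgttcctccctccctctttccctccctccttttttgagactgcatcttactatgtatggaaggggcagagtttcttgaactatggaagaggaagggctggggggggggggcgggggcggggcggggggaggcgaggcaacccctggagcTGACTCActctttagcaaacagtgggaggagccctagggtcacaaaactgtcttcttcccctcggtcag
Serpinb2, chr1:107511173-107511422, + strand: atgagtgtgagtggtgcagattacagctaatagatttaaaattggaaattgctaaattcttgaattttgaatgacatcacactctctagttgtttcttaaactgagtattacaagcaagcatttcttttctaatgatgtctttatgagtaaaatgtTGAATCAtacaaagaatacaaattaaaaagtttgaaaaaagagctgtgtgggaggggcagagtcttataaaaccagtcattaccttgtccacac

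F3 held TGANTCA at 2 places, beginning 146 and 135 bases before the start. It began 69 bases before the start of Plaur and 94 bases before the start of Serpinb2. The middle base was A and then G in F3, C in Plaur and A in Serpinb2. With N as any base the pattern reads the same on both strands, and it stood in 6.75% of all 32851 such windows. The F7 and F10 windows did not contain it. The GC box GGGCGG, searched on both strands, occurred 3 times each in the F3 and Plaur windows, with 2 of those in Plaur sharing a base, and was present in 32.7% of all windows. TATAAA began 29 bases before the start of Serpinb2 and was present in 12.4% of windows. A second RefSeq start of Serpinb2 has a window that overlaps the one shown. These motifs were chosen after the sequences were seen, and a match describes letters, not a bound site.

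Tissue factor mRNA was scarce in every library. The FPKM of F3 (ENSMUSG00000028128) was 0.852, 0.261 and 1.09 in M0 replicates 1 to 3, 1.01, 0.157 and 0.489 in M1, and 0.0826, 0.0461 and 0.175 in M1 + PBM. The M1 libraries spanned nearly the same range as the M0 libraries, whereas the M1 + PBM libraries were all below M0. M1 replicate 2 was below M1 + PBM replicate 3, so the stimulated groups overlapped. Within each replicate number the M1 + PBM library was the lower, with FPKM ratios of M1 to M1 + PBM of 12.3, 3.40 and 2.79. The mean was 0.553 ± 0.432 in M1 against 0.101 ± 0.0665 with PBM (SD, n = 3). The log2 fold change was -0.46 ± 0.20 (SE) on the log2(FPKM + 1) scale, which understates changes of low genes, and -1.51 ± 0.58 (SE) when 0.1 was added in place of 1. With M1 replicate 1 left out the former was -0.26. By the longest annotated transcript, the M1 + PBM values stand for at most 3.6 to 12.2 fragments and the M1 values for at most 10.7 to 76.1.

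Factor VII mRNA did not separate any of the groups. F7 (ENSMUSG00000031443) had an FPKM of 15.5, 16.6 and 1.66 in M0 replicates 1 to 3, 15.8, 35.2 and 4.44 in M1, and 18.4, 26.9 and 5.75 in M1 + PBM. Replicate 3 was the lowest library of each group, and the range within a group was far wider than the difference between groups. On the log2 scale the difference with PBM was 0.048 ± 0.79 (SE), and its sign differed between settings of the analysis.

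Factor X mRNA was far higher in both stimulated groups than in M0. F10 (ENSMUSG00000031444) had an FPKM of 8.25, 9.81 and 2.56 in M0, 152, 214 and 56.2 in M1, and 116, 169 and 54.9 in M1 + PBM. The mean in M1 was 20.5-fold that in M0, without overlap, and F10 ranked among the most abundant rows of M1, between the percentiles 97.3 and 99.4 of the rows above 0. In M1 + PBM the mean was 16.5-fold that in M0. The stimulated groups overlapped widely, and the log2 fold change with PBM was -0.25 ± 0.59 (SE). Within replicate numbers it was -0.38, -0.34 and -0.033. M1 replicate 2, the library with the hepatocyte markers, was the highest of its group for F7 and F10, which the liver is known to make. M1 + PBM replicate 2 was also the highest of its group for both genes, with a hepatocyte sum of 1.55, and the part of liver RNA in these values was not tested. The difference of F10 with PBM was 0.15 when M1 replicate 2 was left out and 0.19 when M1 + PBM replicate 3 was.

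F7 and F10 are neighbours in the genome, and their levels moved together among the stimulated libraries, with an r of 0.97 over 6 libraries that share their replicate numbers in pairs. The proportion between them differed by state. The FPKM of F10 was 0.531, 0.591 and 1.54 times that of F7 in M0, but 6.08 to 12.6 times in M1 and 6.26 to 9.54 times in M1 + PBM. All 6 stimulated libraries were above all M0 libraries in this ratio.

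Thrombomodulin was the anticoagulant member, and it was low in stimulated cells. Thbd (ENSMUSG00000074743) had an FPKM of 4.75, 5.51 and 3.55 in M0, 0.629, 0.576 and 0.497 in M1, and 1.18, 0.664 and 1.26 in M1 + PBM. The M0 mean was 8.11-fold the M1 mean and 4.44-fold the M1 + PBM mean, without overlap in either comparison. The M1 + PBM libraries all lay above the M1 libraries and below the M0 libraries. M1 + PBM replicate 2, at 0.664, stood just above M1 replicate 1, at 0.629. The log2 fold change with PBM was 0.36 ± 0.15 (SE) on the log2(FPKM + 1) scale, and 0.73 ± 0.28 (SE) when 0.1 was added. The M1 values correspond to at most 58.7 to 94.0 fragments.

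Thrombospondin-1 was lower with PBM by a similar factor in each replicate number. Thbs1 (ENSMUSG00000040152) had an FPKM of 4.29, 4.21 and 30.5 in M0, 75.1, 42.2 and 191 in M1, and 35.5, 21.7 and 97.1 in M1 + PBM. Every M1 library was above every M0 library, and the M1 mean was 7.90-fold the M0 mean. This ratio was 24.2 with M0 replicate 3 left out and 4.51 with M1 replicate 3 left out. Replicate 3 was the highest of each group, so M1 and M1 + PBM overlapped and the standard error of the log2 fold change of -0.99 was 0.70. Within the replicate numbers the log2 changes were -1.06, -0.93 and -0.97. A fit that blocks on replicate number gave a standard error of 0.075. Without the block, the difference was -0.41 with M1 replicate 3 left out, -0.52 with M1 + PBM replicate 2, -1.48 with M1 replicate 2 and -1.58 with M1 + PBM replicate 3. M0 replicate 3, where Thbs1 was several times higher than in the other M0 libraries, is the library with the high fibroblast sum. The part of fibroblasts in its Thbs1 value was not tested. In replicates 1 to 3 the fibroblast sum was 13.8, 13.1 and 14.8 in M1 and 22.6, 6.31 and 27.8 in M1 + PBM, and its part in the Thbs1 difference was not tested either. A noncoding RNA gene on the other strand, Gm29233, lies within Thbs1, and its FPKM was at most 1.32. The 5 megakaryocyte markers, examined because platelets hold thrombospondin-1, summed to 11.8 to 20.2 in M0, 14.5 to 27.3 in M1 and 9.52 to 20.5 in M1 + PBM, and 1 of them, Pf4, had an FPKM of at least 1 in every library.

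Urokinase mRNA was abundant in M0 and low in both stimulated groups. Plau (ENSMUSG00000021822) had an FPKM of 225, 124 and 113 in M0, 27.8, 36.9 and 7.29 in M1, and 21.0, 29.4 and 10.96 in M1 + PBM. Its mean in M0 was 6.41-fold that in M1 and 7.52-fold that in M1 + PBM, and every M0 library was above every stimulated one. With PBM the log2 fold change was -0.059 ± 0.62 (SE), and the changes within replicate numbers were -0.39, -0.31 and 0.53.

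The receptor of urokinase was nearly level between M0 and M1 and lower with PBM. Plaur (ENSMUSG00000046223) had an FPKM of 26.5, 24.2 and 24.4 in M0, 33.3, 35.5 and 28.5 in M1, and 12.1, 22.2 and 11.5 in M1 + PBM. The M1 libraries exceeded the M0 libraries without overlap, by a ratio of means of 1.29, but they overlapped when each gene was ranked within its own library. The M1 mean was 2.12-fold the M1 + PBM mean, and the log2 fold change was -1.09 ± 0.25 (SE). The changes within replicate numbers were -1.39, -0.65 and -1.24, so replicate 2 changed least. The M1 + PBM libraries were also below all M0 libraries. This separation was lost when the FPKM was divided by the median of 10 housekeeping genes. That median was itself 78.3 to 94.75 in M0 and 65.4 to 76.6 in the stimulated libraries, so dividing by it raises stimulated values relative to M0.

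Tissue plasminogen activator was barely detected. Plat (ENSMUSG00000031538) had an FPKM of 0.0197, 0.00699 and 0.470 in M0, 0.0362, 0.0374 and 0.144 in M1, and 0.0613, 0.0297 and 0.132 in M1 + PBM. Replicate 3 was the highest of each group, and its M0 library had the high fibroblast sum. The stimulated libraries hold at most 5.1 to 19.7 fragments of Plat, and its log2 fold change with PBM was 0.003 ± 0.053 (SE).

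PAI-2 had the largest ratio of M1 to M0 of the 9 genes and, on the log2(FPKM + 1) scale, the largest difference with PBM. Serpinb2 (ENSMUSG00000062345) had an FPKM of 0.0761, 0.0603 and 1.39 in M0, 36.7, 19.3 and 24.7 in M1, and 11.3, 10.3 and 5.09 in M1 + PBM. The M1 mean was 52.8-fold the M0 mean, and the M1 + PBM mean was 17.5-fold. M0 replicate 3 supplied most of the M0 mean. With it left out the ratios were 394 and 130.0, and the other M0 values stand for at most 4.7 and 4.2 fragments. The M1 mean was 3.02-fold the M1 + PBM mean, and the groups did not overlap. Its log2 fold change was -1.51 ± 0.33 (SE), and it was -1.61, -0.85 and -2.08 within replicate numbers 1 to 3. Leaving out each library in turn kept it between -1.72 and -1.19. The 3' part of Serpinb2 overlaps Serpinb10 in the annotation, whose FPKM was at most 0.0166.

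**Figure D2:**
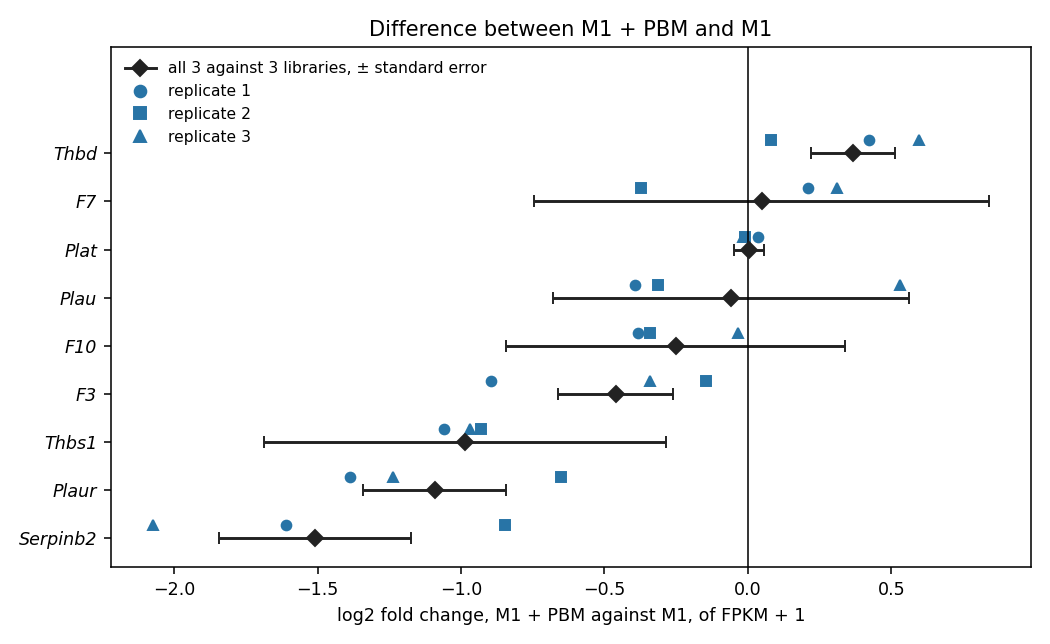
Log2 fold change of FPKM + 1 between M1 + PBM and M1 for the 9 genes, with diamonds and bars for the estimate ± standard error over 3 against 3 libraries and blue markers for each replicate number. F3, F10, Thbs1, Plaur and Serpinb2 lie below 0 in every replicate number, and the 3 Thbs1 markers lie between -1.06 and -0.93.

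In all, 5 of the 9 genes were lower with PBM in each of the 3 replicate numbers. This was so of 10.1% of the rows tested and of 8.64% of the rows above 0. The median log2 fold change of the 9 genes was -0.25, against 0.058 over all rows tested and 0.008 over the rows above 0. It rested on the middle gene, F10, and leaving out M1 replicate 2, M1 + PBM replicate 3 or M1 replicate 3 gave -0.021, -0.036 or -0.68.

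The level of PAI-2 relative to urokinase differed between M0 and both stimulated groups without overlap. In M0 the FPKM of Serpinb2 was 0.000339, 0.000487 and 0.0123 times that of Plau. In M1 it was 1.32, 0.523 and 3.38 times that of Plau, and in M1 + PBM 0.540, 0.349 and 0.464 times. M1 replicate 2 was below M1 + PBM replicate 1, so these ratios overlapped between the stimulated groups. The FPKM of Plau relative to its receptor lay between 4.63 and 8.47 in M0, between 0.255 and 1.04 in M1, and between 0.951 and 1.73 in M1 + PBM.

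**Figure D3:**
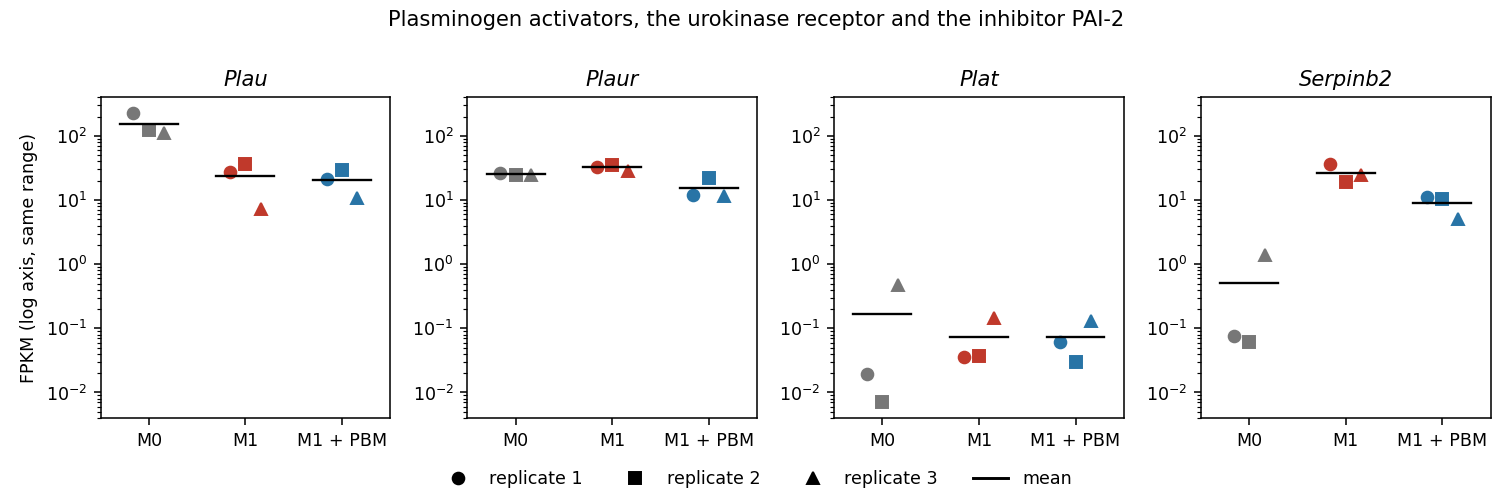
FPKM (log axis, the same range in each panel) of the activator genes Plau and Plat, the receptor gene Plaur and the inhibitor gene Serpinb2 in each library, with a line at each group mean. Plau is lower and Serpinb2 higher in all M1 than in all M0 libraries, Plat stays at or below 0.470, and in M1 + PBM Plaur and Serpinb2 lie below all M1 libraries.

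Other genes of these pathways were taken from a list of 53 set by function, of which 19 reached an FPKM of 1 in 3 or more of the 6 stimulated libraries and were tested with limma. At the thresholds of the study, an unadjusted p of at most 0.05 and a log2 fold change of at least 1 in size, 0 of the 19 were called in either direction, and 0.261% of all rows tested were (0.237% lower and 0.0245% higher with PBM). At an unadjusted p of at most 0.05 alone, 2 of the 19 were lower with PBM and 0 were higher, against 4.44% of all rows (1.45% lower and 2.99% higher). At an adjusted p under 0.05 (limma) 0 of the 19 passed, and 0.00817% of all rows did. Of the 19 genes, 11 had a log2 fold change above 0 and 8 below, with a median of 0.057 against 0.058 over all rows tested.

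Of the 18 coagulation genes 5 were tested. Vkorc1, which recycles the vitamin K that clotting factors need for their carboxylation, had an FPKM of 7.87, 15.6 and 9.77 in M0, 7.26, 6.14 and 5.74 in M1, and 3.91, 3.56 and 3.46 in M1 + PBM. Its libraries separated all 3 groups. The log2 fold change with PBM was -0.66 ± 0.11 (SE), an unadjusted p of 0.000679 and an adjusted p of 0.81 (limma; 0.476 to 0.995 over the alternatives). This passed the p threshold but not the fold threshold, and the changes within replicate numbers were -0.75, -0.65 and -0.60. Mcfd2 and Lman1, whose products carry factors V and VIII out of the endoplasmic reticulum, had log2 fold changes of 0.057 and 0.094. Vwf, named here after its values were seen, encodes von Willebrand factor, the platelet tether, and had an FPKM of 7.84 to 17.1 in M0, 1.74 to 5.82 in M1 and 2.42 to 4.22 in M1 + PBM. Also seen first and then named, the genes of prothrombin (F2), factor V (F5), factor XI (F11) and factor XII (F12) had an FPKM of at most 0.137 in every library. The fibrinogen genes Fga, Fgb and Fgg, named in the same way, had an FPKM of 0.330, 0.319 and 0.268 in M1 replicate 2 and were listed at 0 in the other 8 libraries.

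Of the 11 anticoagulant genes 4 were tested. Procr, the endothelial protein C receptor, had an FPKM of 7.52, 3.74 and 5.66 in M0, 108, 60.4 and 98.4 in M1, and 37.6, 48.1 and 64.8 in M1 + PBM. The M1 mean was 15.8-fold the M0 mean without overlap, in contrast to Thbd, its partner in protein C activation, which was lower in M1. With PBM the log2 fold change of Procr was -0.80 ± 0.28 (SE) (limma, unadjusted p = 0.0261, adjusted p = 0.90), and M1 replicate 2 lay below M1 + PBM replicate 3. Both thresholds were passed when M1 replicate 2 (-1.06) or M1 + PBM replicate 3 (-1.0) was left out. The unadjusted p rose above 0.05 when any of the other 4 libraries was left out, with differences between -0.79 and -0.62. Pros1, named here after its values were seen, encodes protein S, the cofactor of activated protein C. Its FPKM was 2.83 to 3.36 in M1 and 3.49 to 4.92 in M1 + PBM, without overlap, a log2 difference of 0.30 ± 0.13 (SE) (limma, adjusted p = 0.90). Anxa5, which covers procoagulant phosphatidylserine, was abundant and level, with an FPKM of 252 to 309 over all 9 libraries.

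Endothelial markers were examined beside Procr and Thbd, which endothelium also expresses. Their 6 genes summed to 1.83 to 2.70 in M0, 9.59 to 27.6 in M1 and 9.29 to 15.4 in M1 + PBM, and Kdr was the only one with an FPKM of at least 1 in every library. Pecam1, at 0.161 to 1.70, and Cdh5, at 0.364 to 0.762, were also higher in every M1 library than in every M0 library, where they had at most 0.107 and 0.149. Tie1, Emcn and Tek had an FPKM of at most 0.071, 0.011 and 0.098. The part of endothelial cells in these values was not tested.

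The receptor genes of thrombin and related proteases were low. F2r and F2rl2 were the most abundant of 4, with an FPKM of 0.0384 to 0.372 and 0.774 to 2.17, and only F2rl2 was tested. It was higher with PBM without overlap, by 0.21 ± 0.11 (SE) (limma, adjusted p = 0.90).

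Of the 12 further plasminogen genes 5 were tested. Lrp1, the receptor that clears complexes of activators and inhibitors, had an FPKM of 337 to 454 in M0, 91.9 to 122 in M1 and 108 to 174 in M1 + PBM. Its log2 fold change with PBM was 0.42 ± 0.21 (SE) (limma, adjusted p = 0.90). Anxa2, a plasminogen receptor at the cell surface, had 95.8 to 117 in M0, 39.2 to 50.7 in M1 and 45.7 to 80.6 in M1 + PBM, with a log2 fold change of 0.29 ± 0.23 (SE) (limma, adjusted p = 0.90). It was 0.038 with M1 + PBM replicate 3 left out, and that of Lrp1 was 0.63 with M1 + PBM replicate 2 left out.

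Of the 6 genes of other thrombospondins and their receptors 2 were tested. Cd36, a scavenger receptor that binds thrombospondin-1, had an FPKM of 117 to 465 in M0, 53.3 to 135 in M1 and 91.4 to 128 in M1 + PBM, with a log2 fold change of 0.51 ± 0.35 (SE) (limma, adjusted p = 0.90). It was 0.90 with M1 replicate 2 left out (limma, unadjusted p = 0.00443, adjusted p = 0.535) and 0.24 with M1 replicate 3 left out. Cd47, the other receptor, had 26.6 to 30.0 in M0, 53.2 to 71.5 in M1 and 65.1 to 70.0 in M1 + PBM. Its log2 fold change with PBM was 0.094 ± 0.13 (SE). Both genes whose products move phosphatidylserine to the outer membrane were tested. Ano6 had a log2 fold change of 0.15 ± 0.14 (SE). Xkr8 had an FPKM of 2.05 to 2.81 in M0, 22.0 to 24.7 in M1 and 11.3 to 26.5 in M1 + PBM, with a log2 fold change of -0.39 ± 0.28 (SE), which was -0.089 with M1 + PBM replicate 3 left out and -0.67 with M1 + PBM replicate 2 left out.

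**Figure D4:**
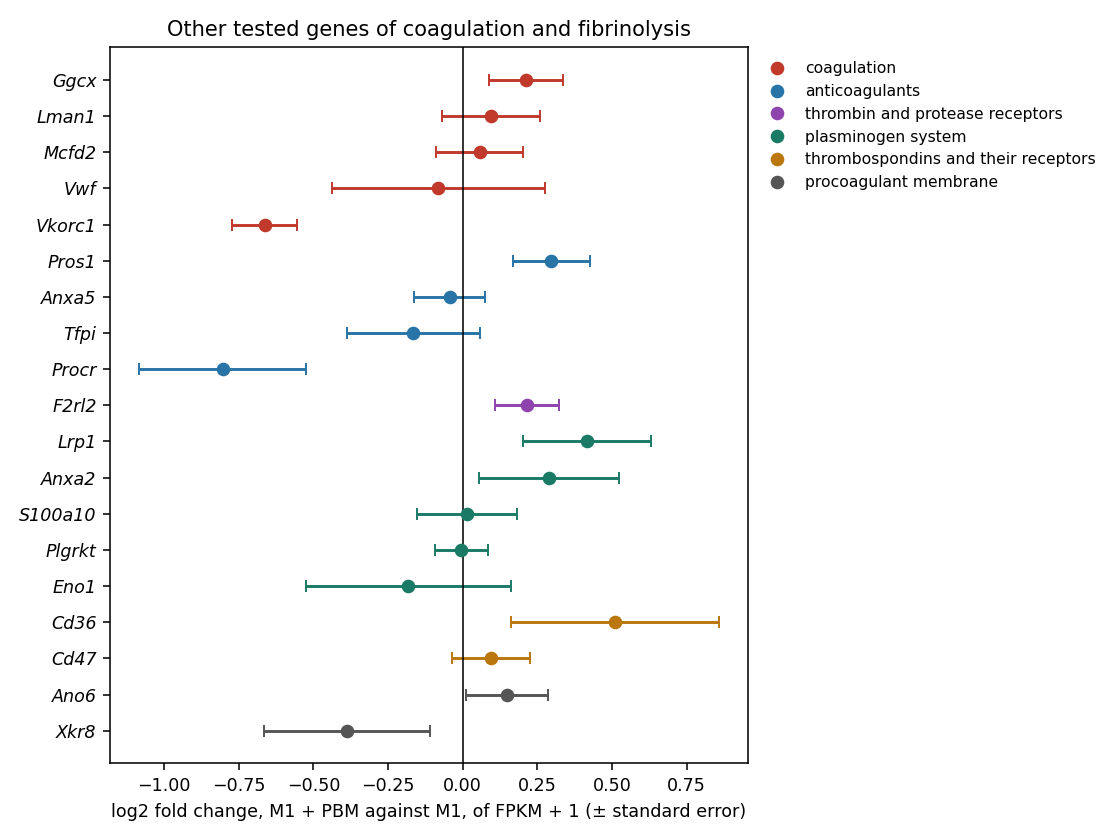
Log2 fold change of FPKM + 1 between M1 + PBM and M1, with its standard error, for the 19 tested genes of coagulation and fibrinolysis other than the 9, coloured by function. Procr and Vkorc1 lie lowest, at -0.80 and -0.66, and 11 of the 19 lie above 0.

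Replicate number moved with several of the 9 genes in all 3 groups. Replicate 3 was the lowest library of M0, M1 and M1 + PBM for F7, F10 and Plau, as it was for 10.9% of the 13915 rows. It was the highest for Thbs1 and Plat, as for 8.57% of those rows, which do not include Plat. Among the 6 stimulated libraries the r of log2(FPKM + 1) was 0.97 between F7 and Plau, 0.98 between F10 and Plau and -0.81 between Thbs1 and Plau. These are descriptions over libraries that share replicate numbers. With the block, the standard errors of the log2 fold changes of F7, F10, Plau and Plaur were 0.16, 0.10, 0.20 and 0.16.

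The rows with the pattern most like that of F3 over the 6 stimulated libraries, by Pearson's r of log2(FPKM + 1), were an assembled locus without a gene name (0.997), U90926 (0.987), Grap (0.983), Osm (0.977) and Ero1l (0.974). U90926 had an FPKM of 190, 38.5 and 110 in M1 and 35.3, 33.5 and 43.6 in M1 + PBM. Osm encodes the cytokine oncostatin M and had 5.28, 2.26 and 2.72 in M1 and 1.83, 1.56 and 1.90 in M1 + PBM. For Serpinb2 the most alike were Prdx5 (0.989), a peroxiredoxin, Zfp558 (0.983), Msantd2 (0.981), another assembled locus (0.980) and Gm7334 (0.979). Prdx5 had an FPKM of 285, 250 and 257 in M1 and 209, 218 and 174 in M1 + PBM. These r describe 6 libraries, chosen as the highest of 12238 rows.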

How the data were processed

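Libraries enriched for mRNA of 3 M0, 3 M1 and 3 M1 + PBM cultures were sequenced on the Illumina HiSeq X platform. The authors deposited FPKM values in 2 tables of 55655 rows, 1 for M0 and 1 for the other 6 libraries, and their methods name Cufflinks for them. The submitters' processing notes name Bowtie 0.12.2 and mm9. The annotation and any filter are not given in the sources used here, and 320 assembled loci carry MSTRG names. The labels call the libraries strand-specific, and whether strand was used in counting is not given. Symbols came from GENCODE M21 (55154 rows matched), and sequences from RefSeq on GRCm38.p6.

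The difference of M1 + PBM from M1 was fitted on log2(FPKM + 1) with limma 3.58.1 under R 4.3.3, using an intensity trend in eBayes. It covered the 12238 rows that reached an FPKM of 1 in 3 or more of 6 libraries, with Benjamini-Hochberg adjustment. Members under this minimum (F3, Thbd and Plat, so that 6 of 9 passed) were estimated in a fit of all 31779 rows above 0. An exact permutation test of 3 against 3 libraries cannot give a p below 0.1 and was not used for calls. The fit was tested on simulated data. The members and lists were chosen with earlier results of these data known. A further gene of the list is not reported here and was left out of the list's counts.

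Depth was estimated from FPKM multiplied by length in genes with 1 transcript. Between 29.0% and 37.3% of low values lay within 0.05 of a whole fragment, where evenly spread values give 10%. The depth was chosen to fit these same values, so part of the excess over 10% may come from that choice. Reads were not recovered, and no count test was run. Fragments behind a gene are upper estimates from its longest transcript and cover counting error only.

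Deviations from the group means correlated between same-numbered M1 and M1 + PBM libraries with r of 0.157, 0.469 and 0.462 across genes, against -0.491 to 0.033 between different numbers. Such deviations cancel out within a group, so positive values for same numbers and negative ones for different numbers partly come together by construction. Every same-numbered pair was above 0.1, and a second fit had the replicate block. Unless the block is named, standard errors and p-values come from the fit without it, which does not use the pairing. The named genes are the 9 members, genes of the list of 53 that passed the thresholds or separated the groups with a log2 fold change of at least 0.5, the 2 most abundant of each functional group, and the 5 rows most like F3 and Serpinb2. Vwf, Pros1, F2, F5, F11, F12, Fga, Fgb and Fgg fall outside this rule and were chosen after their values were seen. The alternatives changed the pseudocount to 0.1, dropped the FPKM minimum or required a mean of 5, scaled by median of ratios or by quantiles, removed the eBayes trend, added the replicate block, or left out each library. For the levels in M0 they were ranks within a library and division by the housekeeping median. Leaving out M0 replicate 3 and a pseudocount of 0.1 with no minimum were added after the data were seen.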

Additional observations from a re-analysis of the deposited data

How the results depend on the processing

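Under the alternatives, 119 of 123 values for single members moved by less than the spread between replicates (1 SD) and 14 changed sign. F3, Thbd, Thbs1, Plaur and Serpinb2 kept their sign throughout, F3 lying between -0.66 and -0.26 over the fits that left out 1 library. F7, F10, Plau and Plat did not. The log2 fold change of F7 was -0.021 and that of Plat -0.006 with median-of-ratios scaling, and that of Plat was -0.007 with quantile normalization. Over the fits that left out 1 library, F7 lay between -0.68 and 0.69, F10 between -0.81 and 0.19, Plau between -0.72 and 0.37, Plat between -0.036 and 0.050, and the median of the 9 members between -0.68 and -0.021. The cause of these reversals was not tested.

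The paper does not name the test behind its own calls, so its count is not set beside those given here. Over the 12238 rows tested, 32 genes passed the thresholds of the study in the limma fit. The count was 75 with a pseudocount of 0.1 and 236 with that pseudocount and no minimum FPKM, and it lay between 27 and 89 when 1 library was left out, the highest 2 being 69 (M1 replicate 2 left out) and 89 (M1 + PBM replicate 2 left out). Under each alternative 1 row had an adjusted p under 0.05 (limma). Calls were 23 higher and 52 lower with the pseudocount of 0.1, 104 and 132 with no minimum as well, and 39 and 50 without M1 + PBM replicate 2. With median-of-ratios scaling the split was 1 higher and 38 lower, against 3 and 29. With the replicate block, which uses the pairing of the numbers, the count was 45, and 0 genes of the coagulation and fibrinolysis list passed with or without it, 2 of 19 having an unadjusted p of at most 0.05 in both fits (limma), while over all rows that share was 4.44% without the block and 8.07% with it. That list had between 0 and 1 calls over the fits that left out 1 library, the call being Procr without M1 replicate 2 or with M1 + PBM replicate 3 left out. The block changed no call among the 19 tested genes of that list. The number of members whose M0 and M1 libraries did not overlap was 6 of 9. The share was 66.3% of the 13915 rows that reached an FPKM of 1 in 3 or more of the 9 libraries. By rank the number was 5 against 57.4%, by the housekeeping median 6 against 55.1%, and without M0 replicate 3 it was 7 against 76.2%. F3 and Plat are counted among the members but are not among those rows. F3 and Plat rest on few fragments.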
